A study of Mus musculus with 38 samples.

Results

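The regions described here are 619 stretches of open chromatin that were less open in Tadys, a tumour-infiltrating CD8+ T cell population of aged mice, than in the terminally exhausted (Tterm) and progenitor exhausted (Tprog) cells sorted from the same kind of tumours. They were found by ATAC-seq, in which a transposase cuts accessible DNA and the reads falling in a peak measure how open it is. A peak was taken where the mean of the aged Tterm libraries and the mean of the aged Tprog libraries were each at least 30 normalised reads and each at least 2 times the Tadys mean, and where both Tadys values lay below every aged Tterm and every aged Tprog value. The 619 Tadys-low peaks were 0.841% of the 73610 peaks measured in the endogenous tumour T cells, and 1.19% of the 52107 peaks whose aged Tterm and aged Tprog means both reached 30, called eligible peaks from here on. They were chosen by the difference between Tadys and the aged subsets, so that difference is described below without a test.

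All samples carry the genotype label wild type and the strain C57BL/6J, the OT-1 samples included, and the tumour cells were sorted on day 15 from B16-OVA tumours, a mouse melanoma line made to express ovalbumin. The endogenous CD8+ T cells formed 5 groups. Tadys (labelled age-associated dysfunctional, Slamf6-Tim-3-) came from mice of 64 to 68 weeks and had 2 libraries. Aged Tterm (Slamf6-Tim-3+) and aged Tprog (Slamf6+Tim-3-) came from mice of the same age, with 3 libraries each. Young Tterm (5 libraries) and young Tprog (4 libraries) came from mice of 10 to 12 weeks. A separate table held naive cells and OT-1 cells, whose T cell receptor is a transgene recognising ovalbumin: aged OT-1 Tterm (6 libraries), young OT-1 Tterm (7), aged OT-1 Tprog (2), young OT-1 Tprog (2), aged naive (2) and young naive (2), the naive cells being splenic. The aged groups of this table carry the age 64 to 68 weeks and the young groups 10 to 12 weeks. The age of an OT-1 group is that of its label, and the mice that received or carried the OT-1 cells are not described further in the sources used here. Libraries were made from sorted pools of 5000 to 50000 cells. Where nothing shows that libraries of a group are separate animals, p-values measure the spread between libraries, which may be technical.

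T cells facing antigen for a long time become exhausted. Progenitor cells, kept by the factor TCF-1, can still divide and give rise to terminal cells, which display inhibitory receptors such as PD-1 and Tim-3 and no longer return to the progenitor state. Distal open regions often act as enhancers, where factors such as NFAT, AP-1, RUNX and ETS proteins bind and which differ between T cell states far more than promoters do. In a sorted pool, a region open in fewer cells and a region less open in each cell cannot be told apart.

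Of the 619 Tadys-low peaks, 12 overlapped a promoter window reaching from 250 bases before to 50 bases after a gene's start. They lay at Usp40, Rrp15, Ikzf1, 4833420G17Rik, Crnkl1, Fndc5, Lhfpl3, Bmp2k, Rimklb, Klrk1, Map7d2 and Rnf138rt1. The 250 bases before the start (RefSeq, GRCm38.p6) are shown for 4 of them, since these are the promoters that the results below return to. Ikzf1 encodes Ikaros, a zinc-finger repressor of lymphoid cells (chr11:11689927-11690176, plus strand). Klrk1 encodes NKG2D, an activating receptor of killer cells (chr6:129623865-129624114, minus strand). Crnkl1 encodes a splicing factor (chr2:145934701-145934950, minus strand), and Usp40 a ubiquitin-specific protease (chr1:88008552-88008801, minus strand). Capitals mark matches, on either strand, to 7 short motifs of transcription factors that act in T cells, spelled out after the sequences.
Ikzf1: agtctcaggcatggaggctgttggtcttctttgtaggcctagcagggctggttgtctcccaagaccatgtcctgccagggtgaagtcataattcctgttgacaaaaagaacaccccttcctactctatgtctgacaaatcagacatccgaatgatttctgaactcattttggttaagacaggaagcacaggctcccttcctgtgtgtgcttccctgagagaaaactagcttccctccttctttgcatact
Klrk1: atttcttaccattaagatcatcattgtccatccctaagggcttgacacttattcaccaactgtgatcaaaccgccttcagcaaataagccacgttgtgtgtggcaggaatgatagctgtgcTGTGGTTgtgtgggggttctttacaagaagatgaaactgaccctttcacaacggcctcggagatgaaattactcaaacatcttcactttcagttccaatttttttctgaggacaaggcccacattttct
Crnkl1: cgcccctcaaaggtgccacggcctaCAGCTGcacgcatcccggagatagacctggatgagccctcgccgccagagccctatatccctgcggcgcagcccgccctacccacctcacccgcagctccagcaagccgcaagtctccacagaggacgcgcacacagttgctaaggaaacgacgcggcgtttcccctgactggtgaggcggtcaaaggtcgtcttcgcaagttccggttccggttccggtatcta
Usp40: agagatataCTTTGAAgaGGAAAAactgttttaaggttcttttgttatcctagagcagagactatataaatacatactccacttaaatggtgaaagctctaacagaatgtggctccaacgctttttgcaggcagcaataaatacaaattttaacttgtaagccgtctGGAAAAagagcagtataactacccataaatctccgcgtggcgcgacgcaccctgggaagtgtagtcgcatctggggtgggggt
The Ikzf1 window held none of the 7 motifs. The Klrk1 window held 1 RUNX match, the Crnkl1 window 1 E-box match, and the Usp40 window 2 NFAT matches and 1 TCF match. The ETS letters searched for were CCGGAAG, and they stood in 2 of the 12 windows (16.7%, against 14.3% of the 12248 windows under any peak and 8.98% of all 21263 windows). The NFAT letters, GGAAAA, stood in 2 windows (16.7%, against 17.5% under peaks and 19.8% of all). E-box letters, CAGCTG, stood in 3 windows (25%, against 11.1% under peaks and 12.1% of all). RUNX letters, TGTGGTT, stood in 1 window (8.33%, against 3.06% under peaks and 3.82% of all). TCF letters, CTTTGAA, also stood in 1 window (8.33%, against 2.94% under peaks and 4.05% of all). The AP-1 letters, TGANTCA, stood in 0 of the 12 (4.00% under peaks, 6.13% of all). The GATA letters, AGATAAG, likewise stood in 0 (1.39% under peaks, 2.45% of all). No motif overlaps another in the 4 sequences shown. A match is a run of letters and not a shown binding site, and no search was made in the other 607 peaks.

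The rule placed both Tadys values below every aged value at each peak. Low medians in both Tadys libraries beside the aged ones were thus fixed in advance and do not show that the 2 libraries agree. The median over the 619 peaks was 24.0 and 24.3 normalised reads in Tadys, against 60.7 to 73.7 in aged Tterm, 69.0 to 74.1 in aged Tprog, 50.1 to 69.4 in young Tterm and 61.6 to 68.9 in young Tprog libraries. Both Tadys libraries stood below all 15 others, and the 4 other groups overlapped. The median of the eligible peaks was 154 and 161 in Tadys, and 151 to 170.2 in the other 15 libraries. Tadys-low peaks held 0.125% and 0.133% of all reads in peaks in Tadys, against 0.239% to 0.354% in the others. Reads in peaks came to 8.51 and 12.1 megareads in Tadys, 22.3 to 26.9 in aged Tterm, 4.64 to 27.8 in aged Tprog, 9.93 to 87.6 in young Tterm and 7.61 to 22.4 megareads in young Tprog.

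**Figure D1:**
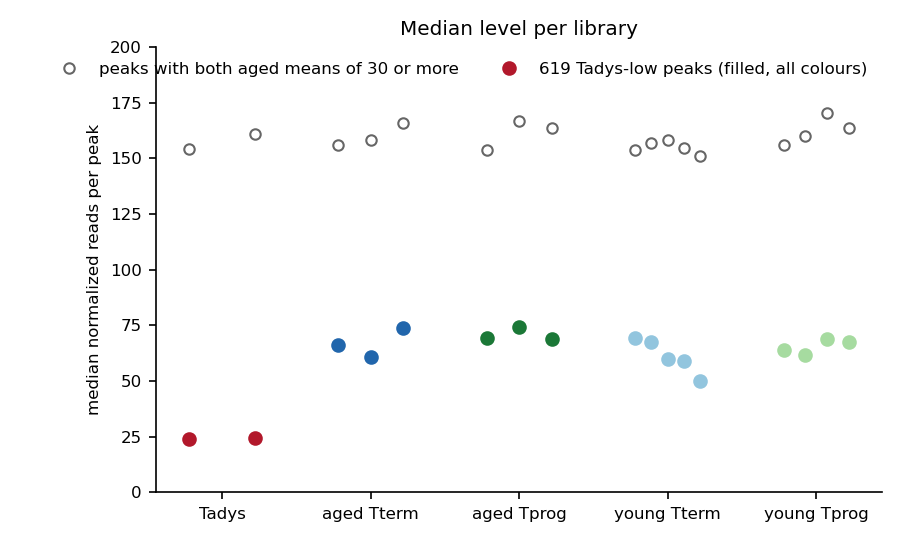
Median normalised reads (vertical axis) over the 619 Tadys-low peaks and over the eligible peaks, 1 point per endogenous library, by group. Both Tadys libraries sit at 24.0 and 24.3 over the Tadys-low peaks, below the lowest other library at 50.1, while the medians of the eligible peaks span 151 to 170.2 over all 17 libraries. The selection fixed that both Tadys libraries are low beside the aged ones.

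The size of the difference varied widely. The smaller of the aged Tterm and aged Tprog means was a median of 2.46 times the Tadys mean. It reached 3-fold in 151 peaks, 5-fold in 44 and 10-fold in 8. The Tadys side rests on few reads: the median peak had 12 reads in the first and 16 reads in the second Tadys library, and 38 peaks had 0 reads in a Tadys library. Leaving out the first Tadys library gave 1985 peaks, 455 of them among the 619, and leaving out the second gave 2468 peaks, 511 of them among the 619. Another 172 peaks met the means and the fold but had overlapping values, and 2188 peaks met the same rule in the opposite direction, higher in Tadys.

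At the 2-fold edge, the nearest peaks inside lay at Usp40 (2.001-fold), Cdk6 (2.002), Osbpl5 (2.003) and Klrk1 (2.003). The nearest outside lay in Rnf216 (1.996), in Cdc20b (1.996), in Atl2 (1.993) and at a place with no gene within 100 kb (1.993). Cdk6, a kinase of the G1 phase of the cell cycle, had a mean of 16.6 in Tadys against 56.6 in aged Tterm and 33.3 in aged Tprog. Cdc20b, just outside, had 111 in Tadys against 236 in aged Tterm and 222 in aged Tprog. These peaks were picked for folds nearest to the threshold on either side, so their similar folds follow from that choice.

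The deepest differences were in peaks nearly without reads in Tadys. The peak with the highest fold lay inside Rev3l, the catalytic subunit of the translesion DNA polymerase zeta, at chr10:39811448-39811789. It had 0 and 1.52 normalised reads in Tadys, 47.4, 38.6 and 95.3 in aged Tterm and 26.9, 32.3 and 43.2 in aged Tprog. Young Tterm libraries had 58.1, 44.5, 27.8, 15.2 and 49.5, and young Tprog libraries 37.8, 54.3, 7.13 and 12.0. Both Tadys libraries lay below all others, but 2 young Tprog libraries were also low. The Tadys values are 0 and 1 read, so no fold is given.

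A peak 71826 bp from Aebp2, a cofactor of Polycomb repressive complex 2, lay at chr6:140750298-140750686. It had 0 and 3.04 in Tadys, 43.9, 54.5 and 68.8 in aged Tterm and 34.6, 11.4 and 87.2 in aged Tprog, with the second aged Tprog library far below the other two. Young Tterm had 50.6, 67.3, 28.6, 53.1 and 54.3 and young Tprog 61.4, 50.6, 31.7 and 78.9, all above Tadys. The other peaks with the largest differences lay in or near Dynlrb2, Ttc39b, Slc12a3, Zfp148, AW549877, Dbndd2, Acta2, Hddc2, Il6st, Lgr6, Rc3h2, Cdc42bpa and Zfand6.

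The young libraries played no part in choosing the peaks. Both Tadys values lay below every young Tterm and every young Tprog value in 402 of the 619 peaks (64.9%), against 5.15% of all 73610 peaks. Both lay below every young Tterm value in 452 (73.0%, against 16.1% of all peaks) and below every young Tprog value in 514 (83.0%, against 13.2%). In 406 peaks (65.6%, against 2.41%), both young means were at least 2 times the Tadys mean. These shares use the same 2 Tadys libraries that chose the peaks, so they describe and do not test a difference of Tadys from young cells. A young mean at or below the Tadys mean was found in 3 peaks.

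Aged and young cells of the same subset were close over these peaks. The median log2 difference of aged minus young was 0.15 in Tterm and 0.13 in Tprog, against 0.00 in Tterm and 0.04 in Tprog over the eligible peaks. The aged values entered the rule and had to be high. The median log2 difference of Tadys minus the aged groups was -1.42 over the Tadys-low peaks and -0.09 over the eligible peaks, and that of Tadys minus the young groups was -1.30 over the Tadys-low peaks and -0.07 over the eligible peaks. Aged Tterm was higher than aged Tprog in 268 peaks and lower in 351, and the means of the 2 aged subsets lay within 2-fold of each other in 609.

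Marker genes were read at their highest peak to check the sort. Havcr2, which encodes Tim-3, had 924 to 947 normalised reads in Tadys, 1482 to 1542 in aged Tterm and 561 to 683 in aged Tprog. Slamf6 had 381 to 532 in Tadys, 352 to 359 in aged Tterm and 496 to 670.45 in aged Tprog. Tadys thus lay between the subsets at Havcr2. At Slamf6 it lay above every aged Tterm value and overlapped aged Tprog, and openness of a gene is not its surface protein. Cd8a, Cd8b1 and Cd3e were open in all groups. Peaks of the 10 naive and resting T cell genes summed to 25757 to 31168 in Tadys, 25719 to 28446 in aged Tterm and 35244 to 40023 in aged Tprog. Sums over B cell, myeloid and innate-like T cell genes in Tadys lay within the range of the aged Tterm and aged Tprog libraries. Melanocyte genes summed to 2148 and 2285 in Tadys, 2202 to 2469 in aged Tterm and 2162 to 2252 in aged Tprog. Genes of regulatory and other CD4 cells summed to 8895 and 9509 in Tadys, 10045 to 10283 in aged Tterm and 9304 to 9591 in aged Tprog. NK cell genes summed to 5482 and 6957 in Tadys, 6321 to 7684 in aged Tterm and 6294 to 7096 in aged Tprog. Tadys was therefore low at the naive and resting genes beside aged Tprog, and close to aged Tterm. Of the marker lists, 2 genes had a Tadys-low peak, Mlana of melanocytes and Fcgr1 of myeloid cells. The part of other cell types in the result was not tested.

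Tadys-low peaks were mostly distal, narrow and weak. Promoter windows held 12 (1.94%, against 18.5% of the eligible peaks), genes outside the window 358 (57.8%, against 46.6%), and intergenic sequence 249 (40.2%, against 34.7%). No promoter window was available on chromosome 18, so its 18 Tadys-low and 1485 eligible peaks could not count as promoter peaks. Their median width was 659 bp, against 1143 bp for eligible peaks and 910.0 bp for all peaks, and 194 (31.3%, against 8.80%) were narrower than 500 bp. The mean of the aged Tterm and aged Tprog means was from 30 to under 60 normalised reads per peak in 252 (40.7%, against 16.1%), from 60 to under 120 in 244 (39.4%, against 24.7%), and 500 or more in 8 (1.29%, against 22.9%). Reads per peak are not divided by width, and the relative counting error is larger in a weak peak. The median distance to the nearest gene start was 24085 bp, against 18665 bp for eligible peaks. It covers the 601 Tadys-low peaks with a known start on their chromosome. The 2188 peaks higher in Tadys needed a mean of 30 in Tadys only, so their shares are set beside all peaks. They were also rarely at promoters (26, or 1.19%, against 13.4% of all peaks). Of them, 722 were narrower than 500 bp (33.0%, against 24.7% of all peaks). A width of 1400 bp or more was found in 22.5% of them, 24.9% of all peaks and 4.52% of the Tadys-low peaks. Few promoters were thus seen in both directions, while wide peaks were rare only among the Tadys-low peaks.

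**Figure D2:**
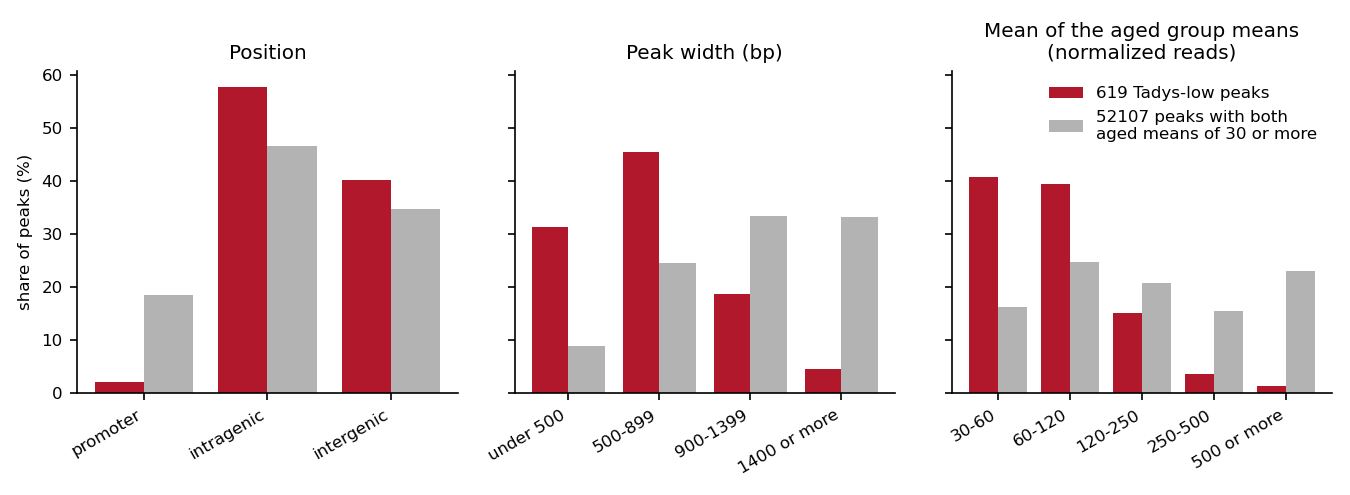
Share of peaks (percent) by position, by width and by level in aged cells, Tadys-low peaks beside the eligible peaks. Promoters held 1.94% of the Tadys-low peaks and 18.5% of the eligible peaks, and peaks narrower than 500 bp made up 31.3% and 8.80%.

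The peaks were spread over all autosomes and the X chromosome at unequal rates. The X chromosome held 35, which is 2.97% of its eligible peaks, followed by chromosomes 14 (1.89%), 1 (1.84%) and 13 (1.64%). Of the 2188 peaks higher in Tadys, 118 lay on the X chromosome (5.39%, against 5.65% of the Tadys-low peaks and 2.71% of all peaks), so the X chromosome held many peaks of either direction. The lowest shares were on chromosomes 4 (0.705%), 17 (0.703%) and 11 (0.549%). Across the 20 chromosomes, the share followed the median log2 difference of Tadys minus aged cells over all eligible peaks (Spearman rho = -0.85), a value from the same libraries. It also followed the mean GC content of the chromosome's promoter windows (Spearman rho = -0.74, 19 chromosomes, as chromosome 18 had no windows). Eligible promoter peaks were also split into 5 bins of similar size by the GC content of their own windows. From low to high GC the median log2 difference of Tadys minus aged cells was -0.15, -0.10, -0.11, -0.10 and -0.16, without a steady trend. The 2 Tadys libraries differed here. The first gave -0.25, -0.18, -0.16, -0.13 and -0.16, lowest in the bin of lowest GC. The second gave -0.08, -0.07, -0.08, -0.10 and -0.19, lowest in the bin of highest GC. The bins held 6, 0, 1, 1 and 4 Tadys-low peaks. The correlations are descriptions across chromosomes, which share the libraries. Whether base composition or amplification moved these peaks was not tested.

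**Figure D3:**
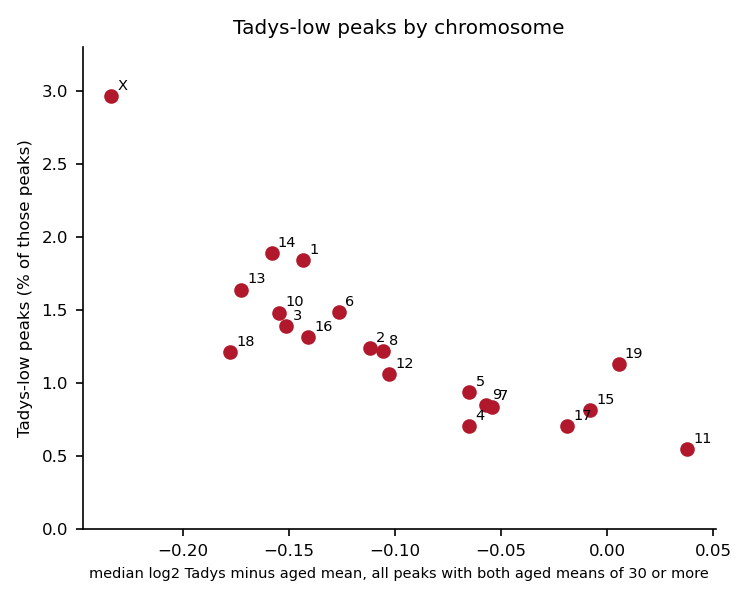
Share of eligible peaks that are Tadys-low (percent) for each chromosome, against the median log2 difference of Tadys minus aged cells over that chromosome's eligible peaks. The X chromosome stands at 2.97% and chromosome 11 at 0.549%.

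By distance alone, 550 genes were nearest to a Tadys-low peak within 100 kb, 443 of them within 10 kb. Most genes (509) had 1 such peak, 37 had 2, and 4 had 3: Elf1, an ETS-family transcription factor, Alcam, a ligand of the T cell surface protein CD6, Sh3kbp1, an adaptor of receptor endocytosis also known as CIN85, and Tnip3, a regulator of NF-kB signalling. The highest Elf1 peak had 120.2 and 139.8 in Tadys, 279.9, 209 and 333 in aged Tterm and 296, 303 and 264 in aged Tprog. Proximity does not show that a peak acts on the gene.

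The 11 lists of T cell pathway genes, with 190 genes and 2162 peaks, held 19 Tadys-low peaks at 17 genes. That is 0.879% of their peaks, close to the 0.841% of all peaks. The lists with most were cytokine receptor pathway genes (4 of 186 peaks) and signal feedback regulators (4 of 252). Exhaustion transcription factors had 3 of 410, costimulation genes 2 of 138, and T cell receptor signalling genes 2 of 285, both at Fyn. Inhibitory receptors had 1 of 114, effector molecules 1 of 136, progenitor and memory genes 1 of 327, and cell cycle genes 1 of 96. Over the eligible peaks of all lists, the median log2 difference of Tadys minus aged cells was -0.17, against -0.09 over all eligible peaks. None of the 133 homing and residency peaks and none of the 93 AP-1 family peaks was Tadys-low.

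Among inhibitory receptors, the peak lay 21416 bp from Ctla4, which competes with CD28 for its ligands, at chr1:60886719-60887609. It had 26.0 and 10.6 normalised reads in Tadys, 31.9, 109 and 72.1 in aged Tterm and 42.3, 61.3 and 51.5 in aged Tprog. Young Tterm libraries had 43.1, 85.9, 54.7, 68.2 and 50.7, and young Tprog libraries 54.4, 98.4, 56.2 and 98.9. The first aged Tterm library was close to the higher Tadys value, and all others were well above it.

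The costimulatory receptor gene Icos, in the same gene cluster, had a peak at chr1:61045889-61046633, 45567 bp away. It had 76.1 and 155 in Tadys, 281, 196 and 422 in aged Tterm and 215, 256 and 326 in aged Tprog. Young Tterm had 291, 287, 268, 243 and 183, and young Tprog 234, 269, 314 and 227. The second Tadys library was about 2 times the first, and both lay below all others. A peak inside Cd226, which encodes the activating receptor DNAM-1, averaged 153 ± 29.0 in Tadys, 443 ± 56.5 in aged Tterm and 367 ± 95.5 in aged Tprog (SD, n = 2, 3 and 3).

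Feedback regulators of receptor signals were Cblb, Rgs1, Spry1 and Spry2. Spry2 inhibits the Ras and ERK pathway, and its peak lay 86246 bp away at chr14:105804966-105805701. It had 4.01 and 10.6 in Tadys, 46.5, 27.6 and 72.9 in aged Tterm and 34.6, 22.9 and 73.1 in aged Tprog. Young Tterm had 73.1, 59.6, 77.4, 59.9 and 46.6, and young Tprog 87.4, 53.3, 72.0 and 62.2. Both Tadys values were below all others, and the smaller aged mean was 5.95 times the Tadys mean, the second highest fold on these lists after an Il6st peak at 8.94. The peak near Spry1 averaged 9.33 ± 1.85 in Tadys, 52.8 ± 17.6 in aged Tterm and 44.0 ± 13.7 in aged Tprog (SD, n = 2, 3 and 3). The peak inside Cblb, an E3 ubiquitin ligase that restrains T cell activation, averaged 33.6 ± 19.1 in Tadys, 69.8 ± 6.0 in aged Tterm and 82.4 ± 26.8 in aged Tprog. The peak near Rgs1, which dampens chemokine receptor signals, had 60.1 and 98.8 in Tadys, 234, 121 and 153 in aged Tterm and 131, 252 and 165 in aged Tprog. At Rgs1, the second Tadys library overlapped the lowest library of young Tterm and of young Tprog, at 94.9 each.

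Transcription factor genes with a Tadys-low peak were Nfatc2, Nr4a2 and Runx2 on the exhaustion list and Ikzf1 on the progenitor and memory list. Nfatc2 encodes NFAT1, which is activated by calcium signals from the T cell receptor, and the peak lay inside the gene at chr2:168578296-168578650. It had 18.0 and 27.3 in Tadys, 84.4, 76.6 and 73.7 in aged Tterm and 154, 125 and 123 in aged Tprog. Young Tterm had 46.9, 71.7, 90.0, 48.5 and 77.6, and young Tprog 125, 145, 166 and 155. Tadys was lowest, Tterm of either age between and Tprog of either age highest, without overlap. The peak near Nr4a2, an orphan nuclear receptor induced by receptor signals, averaged 34.0 ± 2.94 in Tadys, 77.2 ± 10.7 in aged Tterm and 110.1 ± 24.6 in aged Tprog (SD, n = 2, 3 and 3). The peak inside Runx2 averaged 47.6 ± 0.703 in Tadys, 115 ± 13.5 in aged Tterm and 109 ± 20.7 in aged Tprog.

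The Ikzf1 promoter peak at chr11:11689826-11690874, over the sequence printed above, was also among the peaks with most reads of the 619. It had 238 and 209.7 normalised reads in Tadys, 663, 448 and 591 in aged Tterm and 404, 477 and 551 in aged Tprog. Young Tterm had 493, 612, 564, 602 and 660.2, and young Tprog 397, 454, 417 and 449.6. Tadys was below every other library, with 119 and 138 reads behind its values. The Crnkl1 promoter peak at chr2:145934011-145935297 had 341 and 354 in Tadys, 848, 699.8 and 685 in aged Tterm and 715, 835 and 676 in aged Tprog. Young Tterm had 718, 963, 768, 906 and 748, and young Tprog 551, 451, 574 and 649. The peak overlaps the promoter window of Cfap61 as well, so it cannot be given to either gene alone. The Klrk1 promoter peak at chr6:129623368-129624089 had 54.1 and 128 in Tadys, 244, 182 and 267 in aged Tterm and 181, 193 and 173 in aged Tprog. Among young cells, the lowest Tterm library, at 111, lay below the higher Tadys value.

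**Figure D4:**
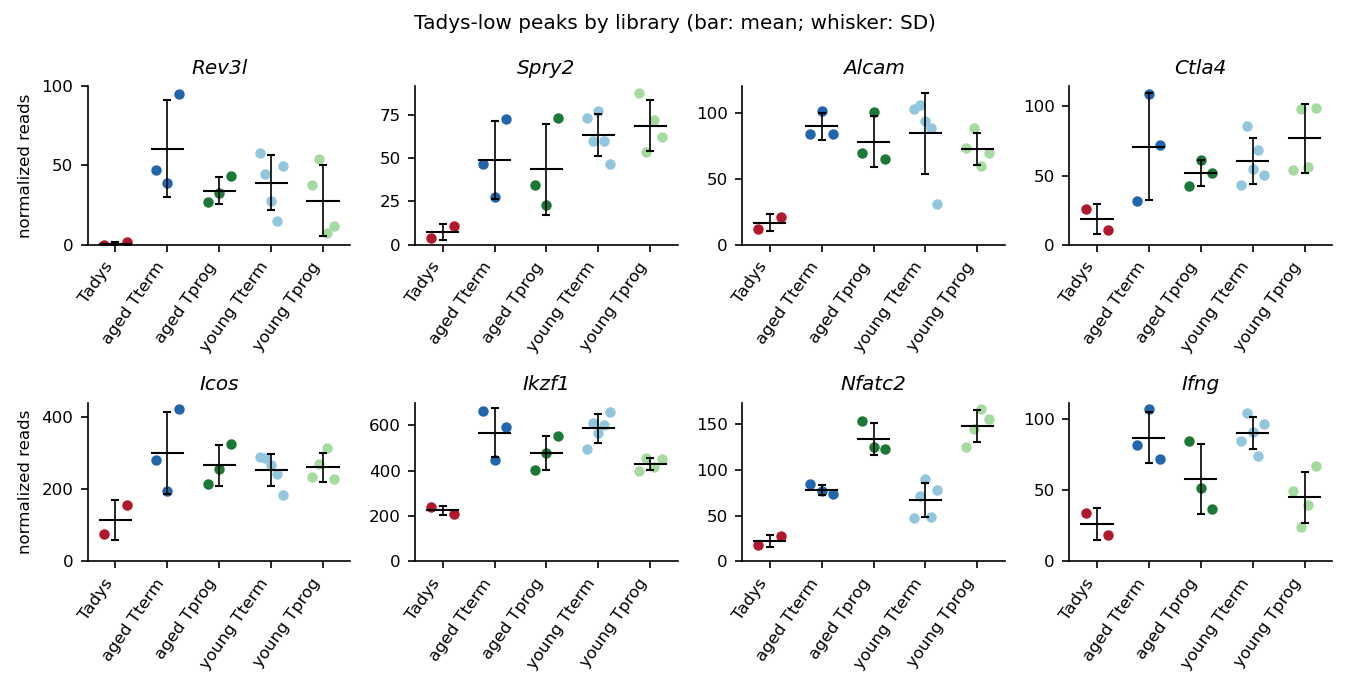
Normalised reads (vertical axis) of 8 Tadys-low peaks in every endogenous library, by group, with the bar at the group mean and the whisker at 1 SD. Both Tadys points lie below all aged Tterm and aged Tprog points in each panel, which the selection fixed, and below all young points except at Ifng, where a young Tprog library stands at 23.9.

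Cytokine genes and their receptors with a Tadys-low peak included Ifng, Il6st and Il2rg. The Ifng peak lay 2940 bp from the interferon gamma gene at chr10:118448834-118449431. It had 34.1 and 18.2 in Tadys, 81.8, 107 and 72.1 in aged Tterm and 84.5, 51.8 and 36.6 in aged Tprog. Young Tterm had 84.4, 104, 90.9, 74.3 and 96.7, and young Tprog 49.6, 23.9, 39.6 and 67.0. Tterm was high at both ages, and Tadys overlapped young Tprog. Il6st encodes gp130, the shared receptor chain of the interleukin 6 family, and had 2 Tadys-low peaks. The one at chr13:112443264-112443804 averaged 6.84 ± 9.67 in Tadys, 61.1 ± 1.62 in aged Tterm and 96.9 ± 30.8 in aged Tprog (SD, n = 2, 3 and 3). The other, at chr13:112437856-112438962, averaged 244 ± 7.57 in Tadys, 571 ± 26.1 in aged Tterm and 527 ± 141 in aged Tprog. The first of these held few reads in both Tadys libraries, and the second held more. Il2rg, the common gamma chain, averaged 16.6 ± 2.01 in Tadys, 55.1 ± 19.7 in aged Tterm and 38.8 ± 10.6 in aged Tprog.

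Among genes outside the lists, the Alcam peak at chr16:52445410-52445876 had 12.0 and 21.3 in Tadys, 83.5, 101 and 83.7 in aged Tterm and 69.2, 100.3 and 64.8 in aged Tprog. Young Tterm had 103, 106, 93.4, 88.7 and 31.0, and young Tprog 73.3, 88.3, 59.4 and 69.4. All libraries but the fifth young Tterm library were far above Tadys.

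Whether Tterm and Tprog differ at these peaks can be tested in young mice, whose libraries the selection did not use. With limma on log2(normalised reads + 1), 86 of the 619 Tadys-low peaks passed an adjusted p of 0.05, 39 higher and 47 lower in young Tterm than in young Tprog. That is 13.9%, against a background of 28% of the 71157 peaks tested (15.5% higher, 12.5% lower). The median log2 difference was -0.07 over the Tadys-low peaks and -0.01 over all peaks. The share of calls was thus below the background, and the median young level of the Tadys-low peaks, 63.5 normalised reads per peak, was also below the 91.6 of all tested peaks. The rule asked for high means in both aged subsets, which lay within 2-fold of each other in 609 of the 619. Such a rule favours peaks open in both subsets. A share below the background was thus partly fixed in advance, and no conclusion is drawn from it. The split of calls depended on scaling: equal library totals gave 21 higher and 75 lower, and quantile scaling 49 higher and 26 lower.

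The Nfatc2 peak was lower in young Tterm than in young Tprog (log2 difference -1.17 ± 0.24 (SE), adjusted p = 0.000437), with no overlap. The Ifng peak was higher in young Tterm (log2 difference 1.07 ± 0.28 (SE), adjusted p = 0.00532), also with no overlap. The Crnkl1 promoter peak was higher in young Tterm (log2 difference 0.56 ± 0.13 (SE), adjusted p = 0.00177). So was the Ikzf1 promoter peak (log2 difference 0.44 ± 0.13 (SE), adjusted p = 0.0105), whose call was lost under equal totals and quantile scaling. The Nr4a2 peak was lower in young Tterm (log2 difference -0.75 ± 0.25 (SE), adjusted p = 0.0246), and its call was lost without young Tterm library 5 or without young Tprog library 3 or 4, where adjusted p reached 0.117, and under quantile scaling and the replicate block. The Fyn peak outside the gene was also lower (log2 difference -0.94 ± 0.34 (SE), adjusted p = 0.0363), a call lost in 6 of 9 fits that left out a library, under quantile scaling, under the replicate block and with all 5 endogenous groups in 1 model. The other 14 of the 19 list peaks did not pass this test.

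Beyond the lists, the lowest adjusted p was at a peak with no gene within 100 kb, at chr18:14493930-14494701. It had 97.5, 97.4, 83.3, 62.9 and 83.6 in young Tterm against 220, 245, 245 and 183 in young Tprog (log2 difference -1.39 ± 0.20 (SE), adjusted p = 5.94e-06). The groups were separate, and Tadys lay below both with 20.04 and 41.0. Dapp1 encodes an adaptor that binds lipids made by PI3-kinase, and its intragenic peak at chr3:137950204-137950658 had 73.1, 77.0, 63.1, 103 and 59.1 in young Tterm against 191, 161, 260.5 and 209 in young Tprog. These values did not overlap (log2 difference -1.45 ± 0.22 (SE), adjusted p = 1.08e-05). The peak near Ccr1, a receptor for CCL3 and CCL5, had 30.0, 37.0, 21.9, 19.0 and 36.4 in young Tterm against 149, 75.4, 119 and 67.8 in young Tprog, again without overlap (log2 difference -1.77 ± 0.32 (SE), adjusted p = 0.000105). Peaks in Wwox, Ston2 and Agbl1 and near Ptpn13 were lower in young Tterm too, with log2 differences of -0.98 to -1.85. In the other direction, the peak near Rasgrf1, an exchange factor for Ras, had 114, 129.9, 172, 102 and 90.1 in young Tterm against 66.2, 23.0, 37.2 and 55.8 in young Tprog (log2 difference 1.47 ± 0.29 (SE), adjusted p = 0.000286). The peak inside Art4 had 65.6, 80.3, 81.6, 96.3 and 93.1 in young Tterm against 18.9, 44.1, 34.0 and 34.3 in young Tprog (log2 difference 1.37 ± 0.29 (SE), adjusted p = 0.000719). Both pairs of groups were separate. Peaks near 1700012B07Rik and in D430041D05Rik and Fam133b were higher in young Tterm too, with log2 differences of 0.90, 1.29 and 1.33. In Tadys, the Art4 peak had 16.0 and 15.2, below every young library of both subsets. The Dapp1 peak had 58.1 and 63.8 in Tadys, which overlapped young Tterm and lay below every young Tprog library. Peaks higher in either young subset were thus among those chosen as low in Tadys beside the aged subsets. Not all of them were low beside both young subsets.

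The OT-1 and naive table had its own peaks. A peak covering at least 50% of the narrower of the pair was found for 607 of the 619 Tadys-low peaks (98.1%, against 94.6% of all endogenous peaks), and 599 passed the filter on low values. Their median level was 31.4 and 32.7 in aged OT-1 Tprog, 30.5 to 38.8 in aged OT-1 Tterm, 31.4 to 39.8 in young OT-1 Tterm, 31.8 and 34.6 in young OT-1 Tprog, 47.1 and 50.4 in aged naive and 41.7 and 43.1 in young naive libraries. All 4 naive libraries were above all 17 OT-1 libraries, and so they were over all tested peaks, with medians of 34.2 to 38.9 in OT-1 and 39.8 to 44.5 in naive libraries. Levels are not comparable between the 2 tables, which were normalised separately.

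Against young naive cells, 263 of 599 Tadys-low peaks passed in young OT-1 Tterm cells (119 higher, 144 lower), which is 43.9% against a background of 40.3% of 84091 peaks (22.4% higher, 17.9% lower). In young OT-1 Tprog cells 168 passed (81 higher, 87 lower), 28.0% against a background of 24.2% (15% higher, 9.15% lower). The share of calls was near the background in both. The median log2 difference was -0.38 in OT-1 Tterm and -0.42 in OT-1 Tprog over the Tadys-low peaks, against -0.06 in OT-1 Tterm and -0.03 in OT-1 Tprog over all peaks. Naive libraries carry a batch entry of their own, so cell state and batch cannot be told apart, and both comparisons share the 2 naive libraries. Without the first or second young naive library the OT-1 Tterm count was 109 (74 higher, 35 lower) or 124 (83 higher, 41 lower), so that the larger part of the calls was then higher, not lower. Leaving out a library gave 61 to 108 calls in OT-1 Tprog in all. There were 108 (56 higher, 52 lower) without the first and 68 (52 higher, 16 lower) without the second OT-1 Tprog library, and 61 (46 higher, 15 lower) and 70 (51 higher, 19 lower) without the first and second naive library. The larger part was higher in all 4 of these fits.

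Several Tadys-low peaks were more open in tumour cells than in naive cells. At the Klrk1 promoter, the lowest, median and highest of the 7 young OT-1 Tterm libraries were 98.4, 109.9 and 148, young OT-1 Tprog had 94.3 and 94.8, and young naive had 15.2 and 27.0. The difference from naive was 2.42 ± 0.31 in Tterm (log2, SE; adjusted p = 1.3e-06) and 2.16 ± 0.38 in Tprog (adjusted p = 0.000183). The Alcam peak had 241, 322 and 369 in young OT-1 Tterm (lowest, median, highest), 252 and 264 in young OT-1 Tprog and 79.0 and 104 in young naive. It was higher in Tterm (1.84 ± 0.24, adjusted p = 2.01e-06) and in Tprog (1.5 ± 0.30, adjusted p = 0.000646). The same held for 4 further peaks, given here by their log2 differences from naive in OT-1 Tterm and then in OT-1 Tprog: in Trps1, a GATA-type repressor (2.62 ± 0.26 and 2.53 ± 0.32), in Tango6 (3.17 ± 0.37 and 3.13 ± 0.45), in Add3 (3.37 ± 0.39 and 2.46 ± 0.47) and near Rasgrf1 (3.55 ± 0.39 and 2.51 ± 0.47). The chr18 peak without a near gene, described above, was higher as well (1.85 ± 0.28 in Tterm, adjusted p = 1.06e-05, and 2.97 ± 0.34 in Tprog, adjusted p = 8.82e-07). The calls at these 7 peaks held in every fit that left out a library.

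The Ifng peak was higher in OT-1 Tterm than in naive cells (log2 difference 1.93 ± 0.33 (SE), adjusted p = 5.42e-05) and in OT-1 Tprog (log2 difference 1.51 ± 0.40 (SE), adjusted p = 0.00782), the second call being lost without the second OT-1 Tprog or the first naive library. The Runx2 peak was higher in OT-1 Tterm (log2 difference 2.02 ± 0.39 (SE), adjusted p = 0.000199) and OT-1 Tprog (log2 difference 1.86 ± 0.47 (SE), adjusted p = 0.00561, lost without the second naive library). The Spry2 peak was higher in OT-1 Tterm (log2 difference 1.92 ± 0.48 (SE), adjusted p = 0.00251) and OT-1 Tprog (log2 difference 2.07 ± 0.58 (SE), adjusted p = 0.0116), the Tprog call being lost in each fit that left out a library. Calls at Ctla4 and Spry1 in OT-1 Tterm (log2 1.05 and 1.49) were lost without either naive library, and that at Cdk6 (log2 1.04) without the first. In the other direction, the Cd226 peak was lower in OT-1 Tterm (log2 difference -0.86, adjusted p = 0.0111), a call lost without either naive library. It was also lower in OT-1 Tprog (log2 difference -1.04, adjusted p = 0.0186), as was the Ikzf1 promoter peak (log2 difference -0.92, adjusted p = 0.0429), both calls being lost in each of the 4 fits that left out a library.

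Other Tadys-low peaks were more open in naive cells. The peak inside Txk, a Tec-family kinase of resting T cells, had 23.2, 35.7 and 50.8 in young OT-1 Tterm (lowest, median, highest), 21.2 and 21.2 in young OT-1 Tprog and 99.0 and 111 in young naive. It was lower in OT-1 Tterm (-1.68 ± 0.40, adjusted p = 0.00146) and in OT-1 Tprog (-2.26 ± 0.48, adjusted p = 0.00128). Peaks in Pag1, an adaptor that recruits the inhibitory kinase Csk (-1.62 ± 0.41 and -2.14 ± 0.50), near Btg3, an antiproliferative factor (-1.22 ± 0.28 and -1.5 ± 0.34), and near Vrk1 (-2.32 ± 0.39 and -2.01 ± 0.47) were lower likewise, by the log2 differences given for OT-1 Tterm and then OT-1 Tprog. So were peaks in Lama4 (-2.30 and -2.10), in Zfp286 (-1.67 and -1.19) and near Serpini1 (-1.92 and -2.66), of which the OT-1 Tprog calls at Lama4 and Zfp286 were lost in 1 and 4 of 4 fits that left out a library. The peak in Wasf2 was called lower in OT-1 Tterm (-1.99), while in OT-1 Tprog (-1.11) it missed the threshold. Tadys-low peaks therefore included regions higher in tumour cells and regions higher in naive cells.

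Between young OT-1 Tterm and young OT-1 Tprog, 22 of 599 Tadys-low peaks passed (13 higher, 9 lower), 3.67% against a background of 7.63% (4.06% higher, 3.57% lower). Because the rule favours peaks open in both subsets, a share below the background was partly fixed in advance here too. The median log2 difference was 0.09, and -0.01 over all peaks. The count was 10 without the first and 2 without the second OT-1 Tprog library. Quantile scaling gave 28 higher and 10 lower, and equal library totals 11 higher and 15 lower. Within the libraries of batches 4 and 5, which hold both groups, 36 passed.

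The Nfatc2 peak had 65.5, 82.8 and 88.0 in young OT-1 Tterm (lowest, median, highest) against 213 and 263 in young OT-1 Tprog and 95.4 and 102 in young naive. It was lower in OT-1 Tterm than in OT-1 Tprog (log2 difference -1.54 ± 0.25 (SE), adjusted p = 0.00021), as in the endogenous cells, and the call held in each fit that left out a library. OT-1 Tprog was above naive (log2 difference 1.25 ± 0.30 (SE), adjusted p = 0.00358), while OT-1 Tterm was not called against naive (log2 difference -0.29 ± 0.25 (SE), adjusted p = 0.374). Art4 (log2 difference 1.51 ± 0.35 (SE), adjusted p = 0.00595) and Lgals3, which encodes galectin-3 (log2 difference 2.97 ± 0.58 (SE), adjusted p = 0.00137), were higher in OT-1 Tterm, each lost without the second OT-1 Tprog library. Dapp1 was lower (log2 difference -1.49 ± 0.34 (SE), adjusted p = 0.00567), lost without either OT-1 Tprog library. Peaks near Cyria (log2 difference 2.56) and 1700012B07Rik (1.34) were higher in OT-1 Tterm, and those in Dnajc10 (-1.44) and Ddhd1 (-1.77) lower. Each of these 4 calls was lost without the second OT-1 Tprog library, and that at 1700012B07Rik also without the first.

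Endogenous and OT-1 cells share no library in this comparison. Of the 84 Tadys-low peaks called in young endogenous cells and tested in OT-1 cells, 77 (91.7%) had the same sign, against 95.4% of all endogenous calls. In both, 16 were called, 8 higher and 8 lower in Tterm and 0 in opposite directions. They are 19.0% of the 84 endogenous calls and 72.7% of the 22 OT-1 calls, against 26.9% and 85.3% over all peaks. Besides Nfatc2, Dapp1, Art4 and Lgals3, they included peaks at Anxa1, Sp100, Prkg1 and Pde3b, the last 2 encoding enzymes of cyclic nucleotide signalling. Both shares were below those of all peaks, a difference that was not tested.

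**Figure D5:**
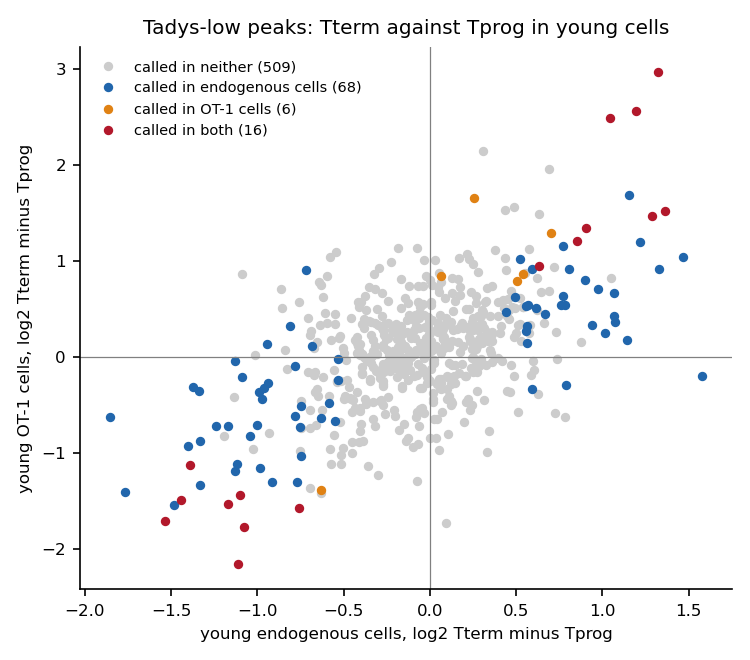
Log2 difference of Tterm minus Tprog at the Tadys-low peaks in young endogenous cells (horizontal axis) against that in young OT-1 cells (vertical axis), 1 point per peak, with peaks called in both marked. The 16 peaks called in both have the same sign in both, 8 higher and 8 lower in Tterm.

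Age was compared in OT-1 Tterm cells, which the selection did not use. Between aged and young OT-1 Tterm, 3 of 599 Tadys-low peaks passed (2 higher, 1 lower), 0.501% against a background of 0.266% (0.178% higher, 0.088% lower). The peak near Mill1, an MHC class I-like gene, at chr7:18236775-18237404 had 50.2, 154 and 203 in the 6 aged OT-1 Tterm libraries (lowest, median, highest) against 20.5, 28.9 and 40.4 in the 7 young ones. The groups did not overlap (log2 difference 2.09 ± 0.24 (SE), adjusted p = 5.38e-05), and the call held without each of the 13 libraries. In endogenous cells this peak had 14.0 and 21.3 in Tadys, 56.8, 35.2 and 121 in aged Tterm, 50.0, 51.8 and 93.0 in aged Tprog, 50.6, 24.3, 26.9, 33.4 and 24.5 in young Tterm and 30.7, 69.9, 24.5 and 23.9 in young Tprog. The aged Tterm values of 56.8 and 121 lay above every young Tterm value, and that of 35.2 above all but the highest. Both Tadys libraries lay below all others. The aged and Tadys values entered the rule, which asked for high aged Tterm and Tprog and low Tadys. They are therefore no test of age in endogenous cells. The Wwox peak was higher (log2 difference 0.95 ± 0.21 (SE), adjusted p = 0.0482) and the Ccser1 peak lower (log2 difference -2.50 ± 0.51 (SE), adjusted p = 0.0284) in aged OT-1 Tterm, calls that were lost in 10 and 7 of 13 fits that left out a library. Within batches 4 and 5 alone, 13 peaks passed.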

How the data were processed

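Chromatin accessibility was measured by ATAC-seq in 38 libraries. Per the submitters' processing notes, reads were aligned with Bowtie2 2.2.9 to mm10, handled with SAMtools 1.3.1 and Picard 2.8.0, peaks were called with MACS2 2.1.1, and DESeq2 1.28.1 was used. The deposited values are a normalised signal, reads per peak scaled by library, and no label or header names the scaling. As 100% of the values of either table came out as whole reads divided by 1 factor per library (within 0.01 of a read), the reads could be recovered. They were used for depth and for the edgeR and DESeq2 alternatives. The 2 tables, of 73610 peaks in 17 endogenous libraries and 169323 peaks in 21 OT-1 and naive libraries, were normalised separately and were tested separately.

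Tests used limma 3.58.1 (R 4.3.3) with a trend on log2(normalised reads + 1), over peaks with a mean of at least 10, with Benjamini-Hochberg adjustment over all peaks tested and a threshold of 0.05. A fold change on this scale understates the change of low peaks. Young endogenous libraries were fitted alone, because the selection had used the aged ones. The 6 groups of the other table were fitted in 1 model with batch 6 as a term. All endogenous libraries carry the entry batch 1 & 2, so these batches cannot be separated there. The model was tested on simulated data. Python 3.11.15 was used for the rest.

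A peak was given the nearest gene within 100 kb, by the deposited coordinates and the RefSeq table of GRCm38.p6, the assembly that mm10 names. The members and the gene lists were chosen with earlier results of these data known. The peaks named were the 15 with the largest difference, the list members, up to 6 (young endogenous cells) or 4 (OT-1 cells) called with the lowest adjusted p in each direction, those of genes with 3 peaks, those nearest to the 2-fold threshold, and any at Pdcd1, Tox, Havcr2, Slamf6, Tcf7, Gzmb or Ifng. Cfap61, Cdc20b, Anxa1, Sp100, Prkg1, Pde3b, Mlana and Fcgr1 fall outside this rule and were named after their values were seen. A list member that the rule names is not reported here. The series text speaks of 2 or 3 replicates per group, while up to 7 libraries per group are listed. Alternatives were other pseudocounts, filters and scalings, edgeR 4.0.16, DESeq2 1.42.0, a replicate block, and each library left out.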

Additional observations from a re-analysis of the deposited data

Results flagged for a closer look

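The check covered 68 groups of 4 to 10 libraries, at peaks described above and for median level and read share of all Tadys-low peaks. In each group the highest or lowest library was compared with its nearest neighbour, and 2 stood apart. Chance alone flags about 1 in 20 such groups. At the Alcam peak, the lowest young Tterm library had 31.0 normalised reads, and the next had 88.7, a gap of 0.774 of the range of the 5 libraries. At the Mill1 peak, the highest young Tprog library had 69.9 and the next 30.7, a gap of 0.852 of the range of the 4 libraries. Neither value enters the choice of the Tadys-low peaks.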

How the results depend on the processing

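The number of Tadys-low peaks was 1085 with quantile scaling (613 of them among the 619), 1986 at a fold of 1.5, 151 at a fold of 3 and 149 with a minimum mean of 100, and 593 to 2468 with a library left out. Equal library totals gave 504 (498 among the 619). With a library left out, 58 to 85 peaks were called in young Tterm against young Tprog, 109 to 261 in young OT-1 Tterm against naive, 61 to 108 in young OT-1 Tprog against naive, 2 to 29 in young OT-1 Tterm against Tprog, and 1 to 7 in aged against young OT-1 Tterm. Young OT-1 Tprog against naive gave 305 with the compared groups fitted alone. Young OT-1 Tterm against Tprog gave 38 with quantile scaling, 35 with DESeq2 and 36 in batches 4 and 5. Aged against young OT-1 Tterm gave 1 with a pseudocount of 0.5, 5 with DESeq2 and 13 in batches 4 and 5. In these cases the cause was not tested. Equal totals moved the median log2 difference of all peaks in young Tterm against Tprog to -0.17, against -0.01, and of the Tadys-low peaks to -0.22, against -0.07. Calls at named peaks were repeated under the other settings: 1833 repeats kept the call and direction, 194 lost the call, and none changed sign. Named peaks not called at first were not followed here.

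The replicate numbers were not taken to pair the samples, since in no comparison did every same-numbered pair correlate above 0.1: the range was -0.20 to 0.03 in young Tterm and Tprog, -0.15 to 0.28 in aged and young OT-1 Tterm (0.28 and 0.20 for libraries 1 and 3), and -0.05 to 0.03 in the other 3 comparisons. A fit with the replicate block called 80, 225, 166, 13 and 2 peaks in the 5 comparisons in the order given above. The tests rest on 2 to 7 libraries per group, and the Tadys values of the peaks on a median of 12 and 16 reads, so a fold near 2 is imprecise. Where a group is left with 1 library, that library is assumed to vary like the others.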
